A study of Homo sapiens and Mus musculus with 69 samples.

Results

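H69 and COR-L88 are human small cell lung cancer (SCLC) cell lines, and their transcriptomes were compared here in cells in which no signal had been switched on. The comparison used the 3 libraries labelled H69 parental and the 3 libraries labelled COR-L88 DMSO, 6 of the 69 libraries of the series and 6 of its 60 human ones. The labels chose the libraries, and all 20516 genes of the human expression table were considered. H69 parental cells carried no vector and received no treatment. COR-L88 had no parental group, and its control cells had been kept with the solvent DMSO alongside cells given the LSD1 inhibitor TAS1440, so that the line cannot be told apart from the solvent and the time in culture. H69 came from a cell repository and COR-L88 was a gift from another laboratory, both were grown in the same medium with fetal bovine serum, and the labels do not say whether the 3 libraries of a group came from separate cultures, so *P* values measure the spread between these libraries, which may be technical. A second pair of groups that shares no library with the first served as a check, namely H69 cells carrying the *NOTCH1* vector without doxycycline (H69 NOTCH1 no dox, 3 libraries) and COR-L88 cells labelled as having *STING* knocked out and kept with DMSO (COR-L88 STING KO DMSO, 3 libraries).

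SCLC is a neuroendocrine (NE) carcinoma in which tumors depend on neuronal lineage factors such as NEUROD1, and nearly all lose the tumor suppressor RB1. One of the 3 MYC paralogs, *MYC*, *MYCN* or *MYCL*, is often amplified. Notch signaling and its target REST, a repressor of neuronal genes that acts together with LSD1, suppress the NE program. Silenced antigen presentation and low STING, the adaptor that relays cytosolic DNA sensed by cGAS, are known features of the NE state.

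Values are log2(RPKM + 1), that is, reads scaled to gene length and to library size with 1 added, so a gene without reads is listed at 0. Differences are H69 minus COR-L88 on this scale, which understates the change of genes near 0, and no difference is given for a gene listed at 0 in every library of a group. The table holds no counts of reads. Relative library sizes were judged from genes listed at 0 in many human libraries, by the most common ratio of their values between libraries. By this measure, H69 parental libraries were 0.870 to 0.985 and COR-L88 DMSO libraries 0.801 to 1.17 times the median size of the human libraries. H69 parental libraries listed 15929 to 16015 genes above 0 and COR-L88 DMSO libraries 15683 to 15964. Over the genes tested, libraries of the same group correlated at *r* = 0.994 to 0.995 in H69 parental and 0.988 to 0.992 in COR-L88 DMSO, and libraries of different lines at 0.795 to 0.806. In the second pair, 1 library stood apart: library 49 of H69 NOTCH1 no dox listed 117 genes at 1 or more that were under 0.1 in both other libraries of its group, against 14 to 35 such genes in each of the 11 other libraries, and 39 of the 117 had a mean of 5 or more in H82, another SCLC line of the series. What put them there was not tested, and values from this group are given by library or with and without library 49, an alternative added after the data had been seen.

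Both lines carried the markers of NE SCLC. *INSM1*, a transcription factor of NE cells, had values of 8.73, 8.99 and 8.77 in H69 and 6.71, 7.06 and 6.97 in COR-L88, *CHGA*, encoding the granule protein chromogranin A, 6.02, 6.32 and 6.51 against 4.69, 4.60 and 4.84, and *SYP*, encoding synaptophysin, 5.70, 5.55 and 5.57 against 5.00, 4.80 and 5.03. For *NCAM1*, the adhesion molecule CD56, the values were 5.87, 6.12 and 5.93 against 5.07, 5.27 and 5.14. Every H69 library was above every COR-L88 library for each of these 4 genes, but libraries did not overlap, in either direction, for 79.4% of all genes tested. Only *INSM1* (difference 1.92, SE 0.12) and *CHGA* (1.57, SE 0.14) passed the thresholds used throughout, an adjusted *P* under 0.05 and an absolute difference of at least 1. Of 13 markers of lymphocytes, macrophages, fibroblasts, endothelium and lung epithelium in the table, only the collagen gene *COL3A1* passed the filter on low values, listed at 0 in H69 and at 1.66, 1.11 and 1.68 in COR-L88, and *CD3E* was listed at 0 in all 6 libraries.

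Genes that reached 1 on the log2 scale in 3 or more of the 6 libraries, 12995 in all, were compared between the lines with limma. Of these, 4794 were called (36.9%), 2625 higher in H69 (20.2%) and 2169 lower (16.7%), and the median difference over all genes tested was 0.01. The libraries of both lines did not overlap for 79.4% of the genes tested, so that a gene whose groups merely do not overlap is the rule here rather than the exception. Differences of at least 3 were found for 744 genes, 507 higher and 237 lower in H69. Among the genes called, 173 had a mean of at least 3 in H69 and under 0.1 in COR-L88, and 68 showed the opposite.

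**Figure D1:**
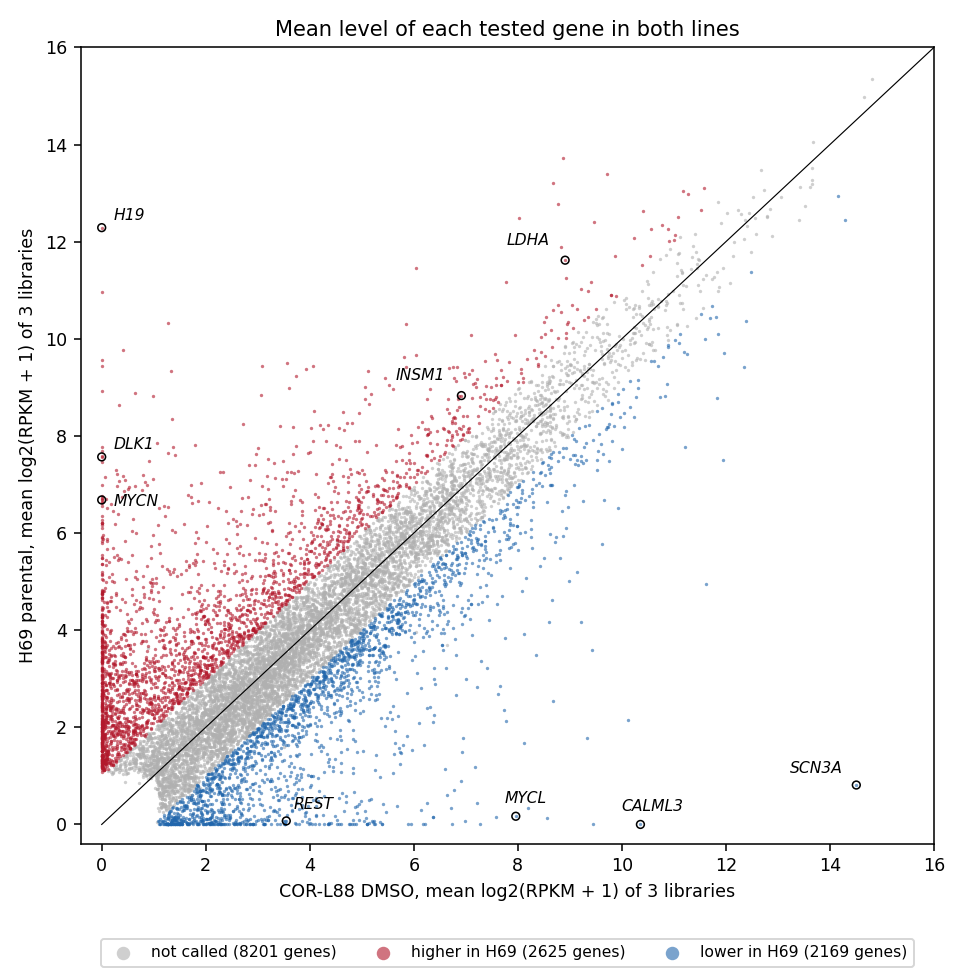
Mean log2(RPKM + 1) of the 3 H69 parental libraries (vertical axis) against that of the 3 COR-L88 DMSO libraries (horizontal axis) for the 12995 genes tested; red, blue and grey points are genes higher in H69, lower in H69 and not called, the line marks equal means and labelled rings mark 9 genes. The 2625 red and 2169 blue points reach both axes, where *H19*, *DLK1* and *MYCN* stand at 0 in COR-L88 and *MYCL* near 0 in H69.

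The genes with the largest differences were high in one line and low or at 0 in the other. *H19*, an imprinted long noncoding RNA, had the highest value of this kind in H69, with 11.7, 12.5 and 12.7 against 0 in each COR-L88 library. *L3MBTL4*, a chromatin reader gene, had values of 11.1, 10.9 and 10.9 against 0. *DCC*, which encodes the netrin receptor, and *MSX2*, a homeobox gene, were listed at 8.88, 9.06 and 8.86 and at 7.57, 7.99 and 7.74, again against 0. Further genes far higher in H69 were the surface protein gene *LY6E* (9.77, 9.83 and 9.69 against 0.57, 0.63 and 0), the semaphorin gene *SEMA6A* (10.3, 10.4 and 10.3 against 1.84, 0.57 and 1.41), the circadian and hypoxia factor *BHLHE40* (8.72, 9.29 and 8.67 against 0.25, 0.88 and 0.78) and the protocadherin *PCDH9* (9.33, 9.45 and 9.24 against 1.56, 1.42 and 1.05). Libraries that do not overlap were a condition of the rule that chose these genes, and 79.4% of all genes tested met it.

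In the other direction, *SCN3A*, which encodes a neuronal sodium channel, stood at 14.4, 14.8 and 14.3 in COR-L88 and at 0, 0 and 2.43 in H69. *CALML3*, a calmodulin-like gene of epithelia, had values of 11.1, 9.62 and 10.4 in COR-L88, and *MAGEA1*, a cancer testis antigen of the X chromosome, 9.42, 9.19 and 9.72, and both were listed at 0 in every H69 library, although MAGEA genes resemble each other and can share reads. *MSN*, encoding the cytoskeletal linker moesin, had 8.70, 8.45 and 8.53 against 0, 0.38 and 0, *SFTA3*, which lies beside *NKX2-1*, 7.35, 7.31 and 7.16 against 0, 0 and 0.05, and *SALL1*, a zinc finger factor, 6.77, 7.02 and 7.15 against 0.12, 0 and 0.11. *AKR1C3*, a steroid and carbonyl reductase, was listed at 10.8, 9.74 and 9.81 against 2.45, 1.77 and 2.22, and its paralogs *AKR1C1* (difference -5.84, SE 0.23) and *AKR1C2* (-4.92, SE 0.27) were lower in H69 as well, although near-identical paralogs can share reads. *ASB3*, at 9.46, 9.81 and 9.40 in H69 and 0 in COR-L88, and *SLFN13*, at 8.21, 8.04 and 8.32 in COR-L88 and 1.02, 0 and 0 in H69, were not seen in the second pair: *ASB3* was 3.38, 0 and 0 in H69 NOTCH1 no dox and *SLFN13* 0 in all 3 libraries of COR-L88 STING KO DMSO. Of the 24 genes with the largest differences, the other 22 were called in the same direction there, with and without library 49.

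*NEUROD1*, a lineage factor of neurons and of a subtype of NE SCLC, was listed at 5.03, 4.77 and 3.32 in H69 against 5.75, 5.56 and 5.75 in COR-L88 (-1.31, SE 0.41, adjusted *P* = 0.021 by limma). That call rested on single libraries, since without library 48 of H69 the difference was -0.786 and without library 12 of COR-L88 it no longer passed the thresholds. In parental H82 and H524 cells *NEUROD1* stood far above both lines, at 13.1 to 14.3. *POU2F3*, the tuft cell factor, and *YAP1*, which marks non-NE cells, did not pass the filter: both were listed at 0 in H69 and at 0.41, 0.80 and 0.46 (*POU2F3*) and 1.36, 1.00 and 0.86 (*YAP1*) in COR-L88.

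The second pair departed from the first in *NEUROD1*, which was 10.6, 8.88 and 8.69 in H69 NOTCH1 no dox against 6.38, 6.25 and 5.90 in COR-L88 STING KO DMSO. The line difference therefore had the opposite sign in the second pair (3.22, SE 0.49, or 2.61 without library 49), and the difference between the pairs was -4.53 (SE 0.71), or -3.92 without library 49. H69 cells with the vector but no doxycycline were thus above parental H69 cells in this factor.

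**Figure D2:**
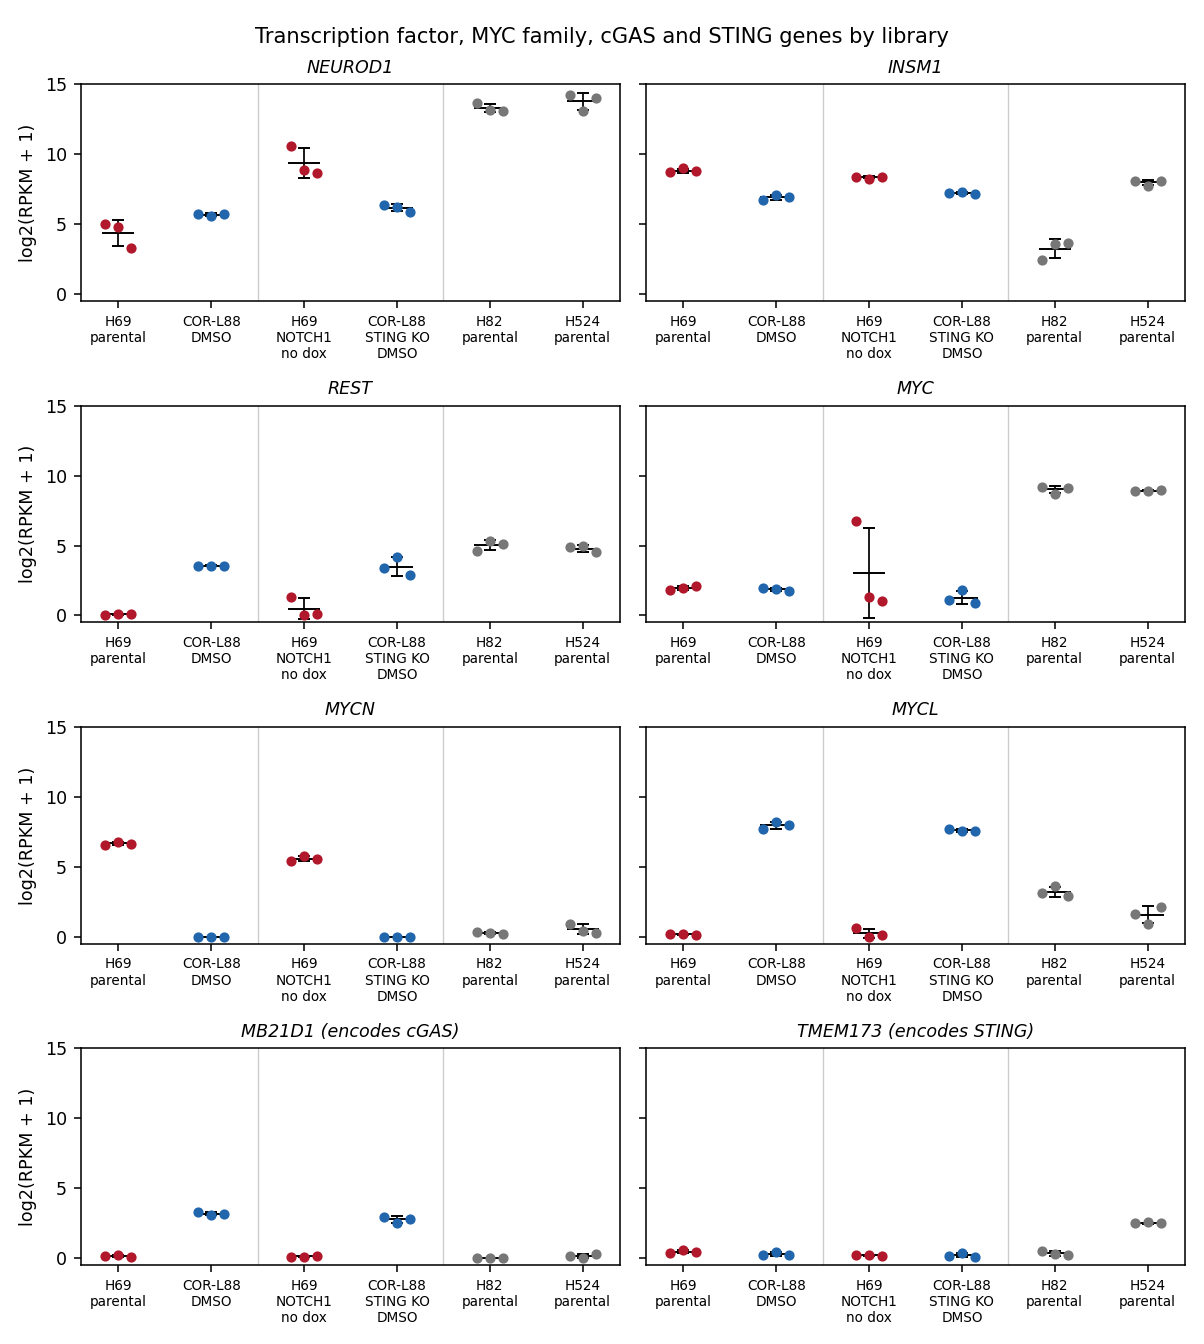
Log2(RPKM + 1) of 8 genes (vertical axis) in the 3 libraries of each of 6 groups (horizontal axis): red points are H69, blue COR-L88 and grey H82 and H524, and black bars are the mean and SD of 3 libraries. *MYCN* is high in H69 alone and *MYCL* highest in COR-L88 in both pairs, *NEUROD1* is 3.32 to 5.03 in H69 parental and 8.69 to 10.6 in H69 NOTCH1 no dox, and *TMEM173* (STING) is under 0.6 in all 12 libraries of the lines compared.

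The gene lists described from here on are read against the shares of all genes tested, 20.2% higher and 16.7% lower in H69. Among 32 tested lineage factors, 13 were higher in H69 (40.6%) and 5 lower (15.6%, near the background), with a median difference of 0.63. *NHLH2* (4.34, 4.17 and 4.43 in H69, 0 in COR-L88), *NHLH1* (difference 4.04, SE 0.14) and *SOX11* (2.98, 3.07 and 3.03 against 0), factors of immature neurons, and the islet and motor neuron factor *ISL1* (2.75, SE 0.17) were higher in H69. *NKX2-1*, which directs lung and thyroid development, was lower in H69 (3.88, 3.96 and 3.98 against 6.91, 6.67 and 6.13), as were the epithelial factor *GRHL2* (0, 0.04 and 0.03 against 4.02, 3.99 and 4.00), *LHX2* (-2.87, SE 0.14) and *PROX1* (-1.97, SE 0.13).

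Of the 37 genes of NE differentiation, all of which passed the filter, 19 were higher in H69 (51.4%), 4 were lower (10.8%) and 14 were not called, with a median difference of 1.07. *DCX*, encoding the microtubule protein of migrating neurons, was listed at 6.93, 7.14 and 6.88 in H69 and at 0 in COR-L88. *CPLX2*, a regulator of vesicle release, differed by 5.40 (SE 0.25), the secretory granule gene *PTPRN* by 4.66 (SE 0.36) and the somatostatin receptor *SSTR2* by 4.54 (SE 0.07), which stood at 4.57, 4.59 and 4.60 against 0.06, 0.07 and 0.02. *UCHL1* (-1.65, SE 0.14), a neuronal deubiquitinase, *SYT4* (-1.57, SE 0.17) and *PTPRN2* (-1.24, SE 0.14) were lower in H69. Peptide hormones did not share 1 direction, with 5 of 13 tested higher (38.5%) and 4 lower (30.8%): neurotensin (*NTS*, 5.09, 4.86 and 4.77 against 1.04, 1.02 and 0.83) and *CARTPT* (3.28, 3.76 and 3.58 against 0) were higher in H69, and gastrin-releasing peptide (*GRP*, 3.92, 4.11 and 4.02 against 6.77, 6.38 and 6.51) was higher in COR-L88.

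Of 16 tested neurotransmitter receptors 12 were higher in H69 (75.0%) and 2 lower (12.5%), with a median of 1.52. Of 29 tested voltage-gated channels 14 were higher (48.3%), 5 were lower (17.2%, near the background) and 10 were not called (median 0.88). The glutamate receptor *GRIA1* had values of 7.05, 7.00 and 6.84 against 0.54, 0.60 and 0.77, the dopamine receptor *DRD2* 9.45, 9.51 and 9.36 against 4.48, 3.57 and 4.11, and the nicotinic subunit *CHRNA3* 3.55, 3.71 and 3.57 against 0.07, 0.04 and 0.06. The calcium channel *CACNA1H* was listed at 3.24, 3.53 and 3.48 against 0. The sodium channels *SCN3A* and *SCN2A* went the other way, *SCN2A* standing at 0 in H69 and 5.26, 5.29 and 5.16 in COR-L88.

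*REST* (chromosome 4, 57774042 to 57832974 of GRCh37), which encodes the repressor of such neuronal genes, had values of 0, 0.12 and 0.10 in H69 and 3.55, 3.57 and 3.52 in COR-L88, and parental H82 and H524 cells were at 4.52 to 5.33. The difference was -3.48 (SE 0.07, adjusted *P* = 3.6e-08). In the second pair *REST* stood at 1.34, 0 and 0.12 in H69 against 3.37, 4.20 and 2.89, the 1.34 being library 49. REST binds a long element, RE1, and a short form of it was searched in the RefSeq promoter sequences of build GRCh38.p14, 250 bases before to 50 after each start, to see which of the genes with differences carry it. The letters searched were CAGCACCNNGGACAG on both strands, N being any base. At least 1 promoter of 16 of 27195 genes (0.0588%) and of 6 of the 10399 tested genes with a promoter sequence held them. Of these 6, 5 were higher in H69 and 1 was not called. Among the 10399 genes, 1924 were higher in H69 and 1721 lower. Among the 6, *GAD2* and *GRIA2* reached 1 in H69 libraries only, so the filter admitted them through the line in which they were high. The other genes with the letters did not pass the filter or were not in the human table. The count of 5 is therefore a description and no test of the letters. These 6 genes were named for the letters after their values had been seen. The stretches around all 6 matches are shown because they carry the letters within 250 bases before the start, with the match in capitals, 5′ to 3′ on the strand given. The match began 79 bases before the start in *GAD2*, 227 in *GRIA2*, 231 in *SYN1*, 143 in *BSX*, 137 in *TMEM179* and 116 in *OGDHL*:
*GAD2*, chr10:26216263-26216337, plus strand: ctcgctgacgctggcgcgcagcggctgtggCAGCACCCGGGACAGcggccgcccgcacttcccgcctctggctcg
*GRIA2*, chr4:157220369-157220436, minus strand: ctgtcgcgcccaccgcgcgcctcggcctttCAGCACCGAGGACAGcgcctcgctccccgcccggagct
*SYN1*, chrX:47620044-47620107, minus strand: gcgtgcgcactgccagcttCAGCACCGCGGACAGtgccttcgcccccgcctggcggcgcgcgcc
*BSX*, chr11:122981933-122982007, minus strand: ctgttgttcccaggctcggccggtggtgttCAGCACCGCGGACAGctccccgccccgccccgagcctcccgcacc
*TMEM179*, chr14:104604865-104604939, plus strand: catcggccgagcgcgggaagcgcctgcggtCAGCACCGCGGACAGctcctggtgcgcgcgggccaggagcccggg
*OGDHL*, chr10:49762395-49762469, minus strand: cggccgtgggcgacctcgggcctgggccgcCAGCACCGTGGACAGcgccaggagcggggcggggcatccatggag
*GAD2*, encoding a GABA-synthesizing enzyme, had values of 3.33, 3.34 and 3.22 in H69 and 0.30, 0.39 and 0.35 in COR-L88. The glutamate receptor *GRIA2* stood at 2.34, 2.17 and 2.35 against 0.06, 0.05 and 0.07, and *SYN1*, encoding synapsin I, at 3.44, 3.42 and 3.45 against 1.64, 1.73 and 1.79. The other 2 genes higher in H69 were *TMEM179* (difference 1.68, SE 0.16) and *BSX* (1.71, SE 0.39), and *BSX* differed by 0.03 in the second pair (0.07 without library 49). *OGDHL*, a mitochondrial dehydrogenase gene, had values of 2.90, 3.00 and 2.99 against 2.84, 2.92 and 3.22. Binding of REST was not measured, and whether its level bears on these differences was not tested.

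Of 32 tested Notch pathway genes, 7 were higher in H69 (21.9%), 3 lower (9.38%) and 22 not called (median 0.22), so that the share called, 31.3%, was near the 36.9% of all genes tested. *NOTCH1* did not pass the filter, at 0.58, 0.62 and 0.58 in H69 and 0.61, 0.74 and 0.63 in COR-L88, and overlapping values were also found for *NOTCH2*, a second receptor (2.13, 2.20 and 1.92 against 2.04, 2.04 and 1.65). The target *HES1* (4.08, 4.40 and 4.16 against 4.87, 4.44 and 4.63) and the inhibitory ligand *DLL3* (4.57, 4.71 and 4.58 against 4.89, 5.15 and 5.01) differed by -0.43 (SE 0.14) and -0.40 (SE 0.10) and were not called. The noncanonical ligand *DLK1*, an imprinted gene, was listed at 7.50, 7.62 and 7.58 in H69 and at 0 in COR-L88. *HEY2*, a Notch target, was higher in H69 (2.05, SE 0.11), and *LFNG*, a glycosyltransferase that modifies Notch receptors, was lower (-2.12, SE 0.09). Of the 25 tested chromatin regulators that act with Notch or REST, 2 were higher in H69 (8.00%) and 4 lower (16.0%). *KDM1A*, encoding LSD1, stood at 5.10, 4.99 and 4.97 against 5.35, 5.32 and 5.30 and was not called, and neither was *EZH2* (difference 0.79, SE 0.08). *RCOR2*, a CoREST subunit that binds LSD1, was higher in H69 (3.08, SE 0.20), and the histone deacetylase genes *HDAC1* (-1.93, SE 0.09) and *HDAC2* (-1.05, SE 0.08) were lower.

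The MYC paralogs divided the lines. *MYCN* (chromosome 2, 16080672 to 16087129) was listed at 6.59, 6.79 and 6.66 in H69 and at 0 in every COR-L88 library. *MYCL* (chromosome 1, 40361100 to 40367928) stood at 0.17, 0.20 and 0.14 in H69 and at 7.68, 8.22 and 7.98 in COR-L88, a difference of -7.79 (SE 0.14, adjusted *P* = 1.8e-08). *MYC* was low in both, with overlapping values of 1.81, 1.99 and 2.13 against 1.95, 1.91 and 1.72 (difference 0.12, SE 0.11), while parental H82 and H524 had means of 9.02 and 8.93. The second pair gave the same picture for *MYCN* (5.39, 5.76 and 5.57 against 0) and *MYCL* (0.63, 0 and 0.09 against 7.69, 7.57 and 7.55). In it *MYC* was 1.35 and 1.04 in 2 libraries of H69 NOTCH1 no dox and 6.75 in library 49. Of the MYC partners, the antagonists *MXI1* (2.05, SE 0.18) and *MXD1* (-1.61, SE 0.13) differed in opposite directions.

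*MYCL* was not alone. In the order of tested genes along chromosome 1, 25 consecutive genes from *RRAGC* to *ZNF684* (39303870 to 41013839 of GRCh37) were all called lower in H69, with differences of -1.22 to -7.79 and a median of -2.59. They formed the lowest of the 12278 windows of 25 neighboring tested genes, where windows at the 1st and 99th percentile had medians of -1.47 and 1.35. Differences were largest at *MYCL* and next to it: *TRIT1*, a tRNA-modifying enzyme, stood at 1.73, 1.83 and 1.75 in H69 and 6.87, 7.01 and 6.97 in COR-L88, and *MFSD2A*, a lipid transporter, at 4.30, 4.16 and 4.06 against 8.69, 8.45 and 8.66. The bone morphogenetic protein gene *BMP8B* differed by -4.25 (SE 0.14). *RIMS3*, the next tested gene beyond the run and a gene of synaptic vesicle release, was higher in H69 (3.34, SE 0.12). In parental H82 and H524 cells *TRIT1* had means of 3.49 and 3.20, between both lines. In the second pair the 25 genes were lower as well, by 0.619 to 7.36, with a median of -2.53 (-2.62 without library 49). Other windows of chromosome 1 were low too. From *VAMP3* to *CASZ1* the median was -2.28, with 24 of 25 genes lower in H69. From *ADPRHL2* to *UTP11L* it was -1.95, with 20 of 25 lower.

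**Figure D3:**
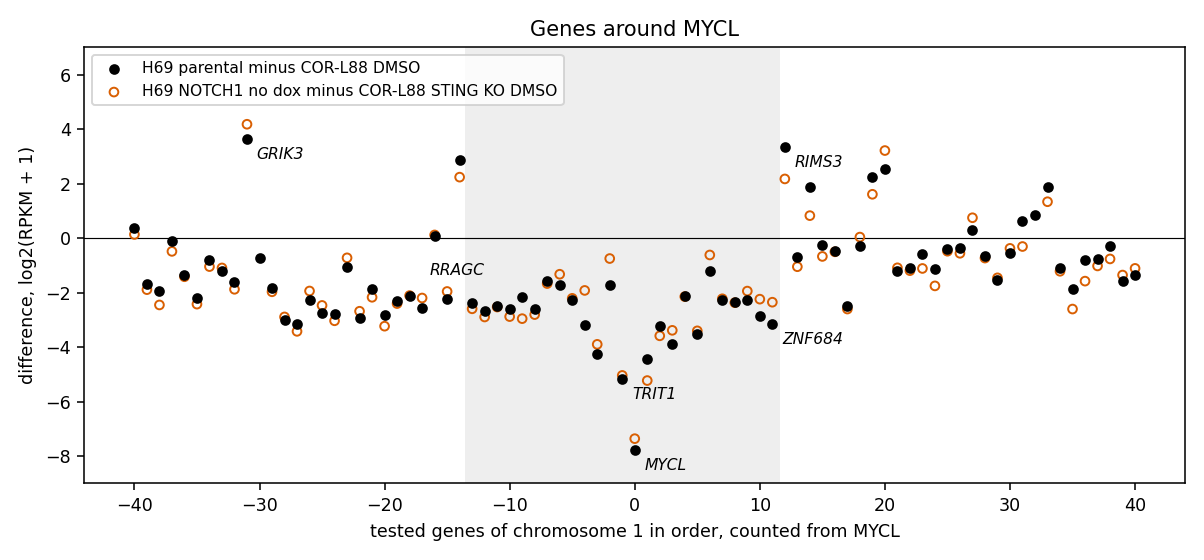
Difference between the lines in log2(RPKM + 1) (vertical axis) for 81 tested genes of chromosome 1, in order from *MYCL* at 0 (horizontal axis); filled points are H69 parental minus COR-L88 DMSO, open points H69 NOTCH1 no dox minus COR-L88 STING KO DMSO, and the grey band marks the 25 genes from *RRAGC* to *ZNF684*. The filled points of the band lie between -1.22 and -7.79 and are lowest at *MYCL*, with *RIMS3* at 3.34 just outside.

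The genes beside *MYCN* behaved otherwise. The antisense gene *MYCNOS*, which overlaps *MYCN* so that reads cannot be told apart without the strand setting of the counting, stood at 6.28, 6.30 and 6.22 in H69 and 0 in COR-L88. The nearest tested neighbors of both were not raised. *DDX1*, an RNA helicase gene often amplified together with *MYCN*, had values of 4.42, 4.49 and 4.53 against 5.60, 5.41 and 5.61. *FAM84A* differed by -3.52 (SE 0.09) and *LPIN1* by -1.51 (SE 0.10). Further away, *RHOB*, 13 tested genes beyond *MYCN*, was higher in H69 (2.36). Of the 13 tested genes listed for that region, 2 were higher in H69 (15.4%), both named above, and 6 lower (46.2%). On the whole arm 2p, 104 of 351 tested genes were lower in H69 (29.6%) and 39 higher (11.1%), with a median of -0.71. DNA copy number was not measured in these libraries, and whether it differs at *MYCN* was not tested.

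Differences followed the chromosomes beyond these genes. A position in GRCh37 was available for 12830 of the tested genes. Of the 721 genes on arm 1p, 329 were lower and 76 higher in H69, with a median of -0.91, against 16.7% lower and 20.2% higher among all genes tested. Medians on 4p, 16q and 5p were -0.82, -0.78 and -0.76. On 5q, 227 of 487 genes were higher and 27 lower (median 0.93), and on 21q 62 of 124 were higher and 6 lower (median 1.01). The second pair gave medians of -0.85 (1p), -0.83 (4p), -0.80 (16q), 0.97 (5q) and 0.88 (21q), and -0.92, -0.88, -0.84, 0.96 and 0.84 without library 49. Neighboring genes are not independent, and these medians are given as a description.

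**Figure D4:**
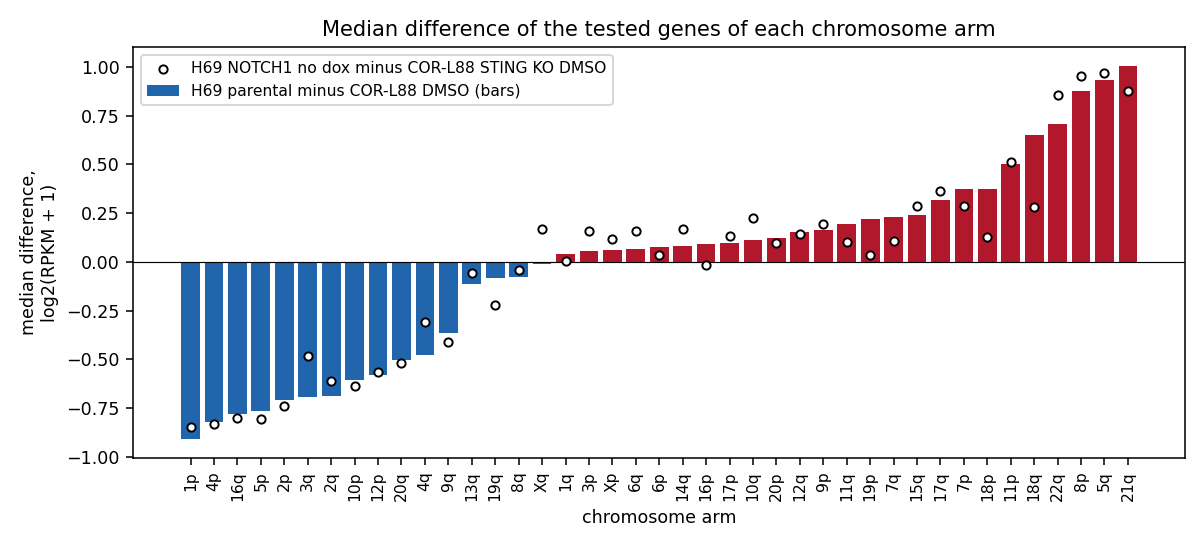
Median difference in log2(RPKM + 1) of the tested genes (vertical axis) of each of 41 chromosome arms in order of that median (horizontal axis); bars are H69 parental minus COR-L88 DMSO, blue below 0 and red above, and open circles H69 NOTCH1 no dox minus COR-L88 STING KO DMSO. The arms range from 1p at -0.91 to 21q at 1.01, and on the arms at either end the circles lie near the bars.

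Clustered developmental and imprinted genes made up other stretches higher in H69. All 7 tested genes of the HOXC cluster were higher in H69, against 20.2% of all genes tested (median 3.95), among them *HOXC10* (7.55, 7.71 and 7.50 against 0) and *HOXC6* (6.42, 6.59 and 6.55 against 0.31, 0 and 0). In the HOXA cluster 9 of 10 were higher and none lower (median 2.33), led by *HOXA9* (5.93, 5.51 and 6.08 against 0.98, 0.35 and 0) and *HOXA10* (difference 3.63, SE 0.11). HOXB genes did not share this direction: 1 of 8 was higher (12.5%), *HOXB2* (1.40, SE 0.13), and 3 lower (37.5%), among them *HOXB8* (0.97, 1.11 and 1.31 against 4.09, 3.81 and 3.70). HOX genes encode factors that specify position along the body axis. Of 16 tested imprinted genes, which are expressed from 1 parental allele, 11 were higher in H69 (68.8%) and 1 lower (6.25%), with a median of 1.56. Besides *H19*, its neighbor *IGF2*, a growth factor gene, stood at 4.43, 4.84 and 5.05 against 0, 0.01 and 0, and at the *DLK1* locus of chromosome 14 the noncoding RNA *MEG3* was listed at 6.39, 5.82 and 6.27 against 0. *PLAGL1*, an imprinted zinc finger gene, was lower in H69 (-1.28, SE 0.09).

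**Figure D5:**
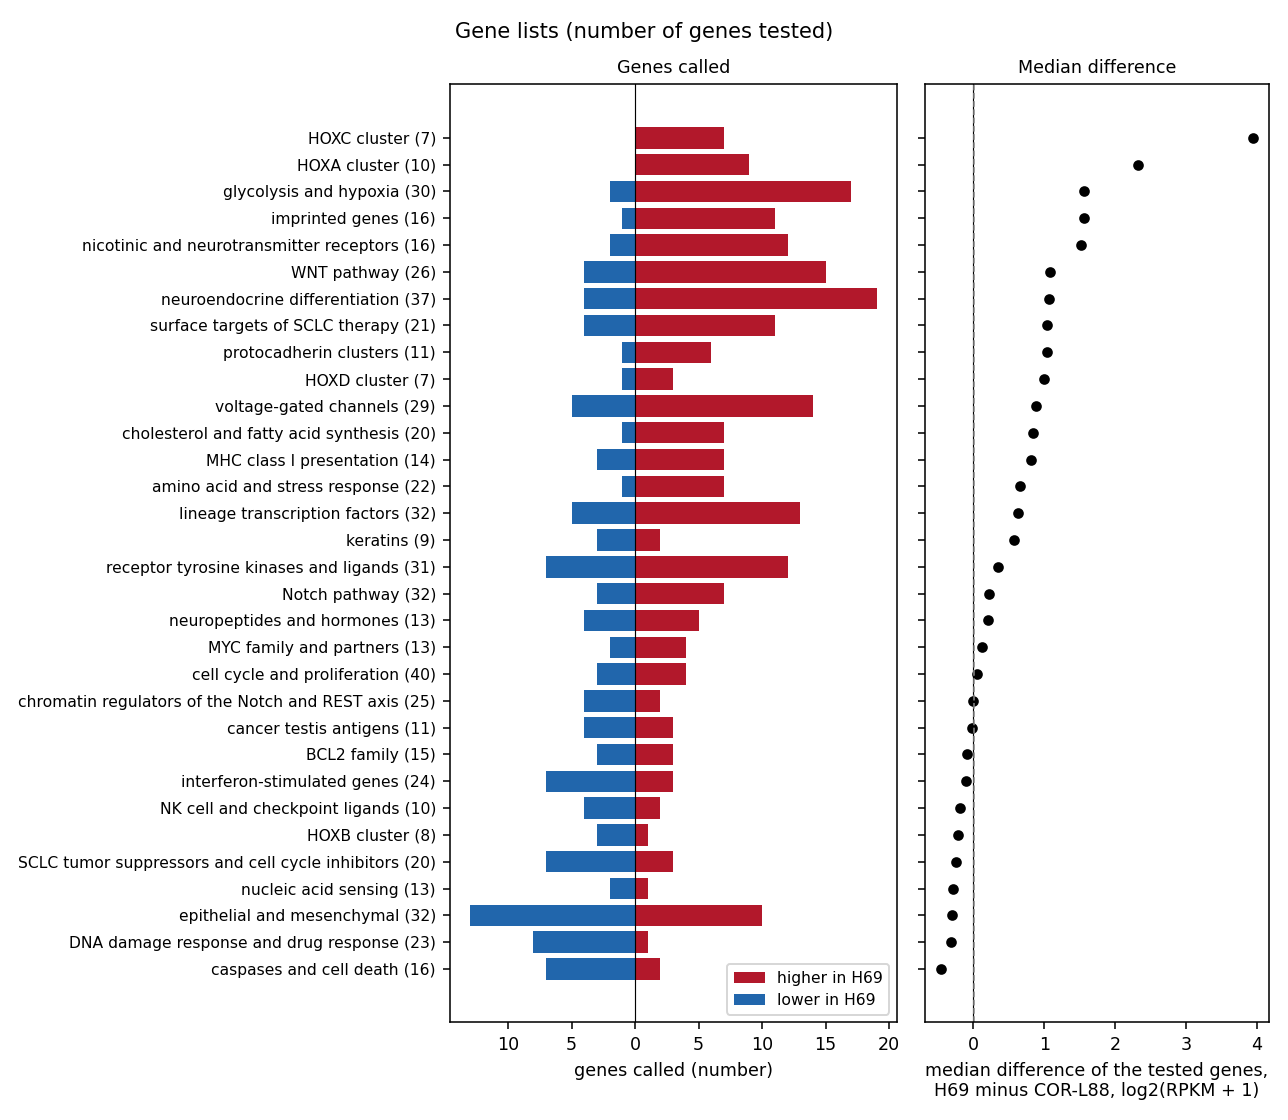
Left, number of genes called higher in H69 (red, to the right) and lower in H69 (blue, to the left) in the 32 gene lists with at least 7 tested genes, leaving out those set by position beside *MYCN* and *MYCL*, with the number tested in parentheses; right, median difference of the tested genes in log2(RPKM + 1), with a solid line at 0 and a dashed line at the median of all genes tested, 0.01. HOXC and HOXA genes lie furthest to the right, at 3.95 and 2.33, and caspases and cell death genes lowest of these lists, at -0.46.

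Of 30 tested genes of glycolysis and of the response to hypoxia, 17 were higher in H69 (56.7%), 2 lower (6.67%) and 11 not called (median 1.56). The lactate exporter *SLC16A3* stood at 9.14, 9.64 and 9.71 in H69 and 3.48, 3.24 and 3.99 in COR-L88, carbonic anhydrase IX (*CA9*) at 6.89, 7.57 and 7.34 against 1.98, 1.92 and 2.93, hexokinase 2 (*HK2*) at 4.37, 5.39 and 5.15 against 0.97, 0.48 and 1.39, and *VEGFA*, the angiogenic growth factor, at 9.38, 9.80 and 9.85 against 5.27, 6.21 and 6.67. *EPAS1*, encoding HIF-2α, was lower in H69 (0, 0.17 and 0 against 2.75, 2.48 and 2.48). Of 20 tested genes of sterol and fatty acid synthesis 7 were higher (35.0%) and 1 lower (5.00%), with a median of 0.84, and the share called, 40.0%, was near the 36.9% of all genes tested. *FASN*, the fatty acid synthase, differed by 1.91 (SE 0.11). In the list of amino acid and stress response genes 7 of 22 were higher (31.8%) and 1 lower (4.55%). That 1 was the cystine transporter *SLC7A11* (4.18, 4.32 and 4.35 against 5.64, 7.31 and 7.94), and *DDIT4*, a stress-induced inhibitor of mTORC1, was higher in H69 (8.33, 8.31 and 7.99 against 1.97, 3.83 and 4.46). The COR-L88 libraries spread by over 2 units for both genes. WNT pathway genes were higher in H69 for 15 of 26 (57.7%) and lower for 4 (15.4%, near the background; median 1.08), including the ligands *WNT10B* (2.80, SE 0.13) and *WNT4* (2.73, SE 0.13) and the receptor *FZD2* (2.83, SE 0.11), while the WNT receptor ligase *RNF43* was lower (-2.25, SE 0.11).

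Of the cytosolic DNA sensing pathway, the sensor cGAS differed between the lines and STING was low in both. *MB21D1*, encoding cGAS, had values of 0.16, 0.22 and 0.09 in H69 and 3.26, 3.11 and 3.18 in COR-L88 (difference -3.03, SE 0.08, adjusted *P* = 8.4e-08), and -2.64 in the second pair (-2.63 without library 49). *TMEM173*, encoding STING, did not pass the filter, at 0.36, 0.55 and 0.42 against 0.24, 0.41 and 0.20. It was 0.12, 0.36 and 0.10 in the libraries labelled COR-L88 STING KO DMSO, which overlap the COR-L88 DMSO values, so RNA does not distinguish the knockout there. Of 13 tested sensing genes 1 was higher in H69 (7.69%) and 2 lower (15.4%), the second being *IFIH1*, the RNA sensor MDA5 (-2.17, SE 0.11). Among 24 tested interferon-stimulated genes, 3 were higher (12.5%) and 7 lower (29.2%), with a median of -0.11, and the share called, 41.7%, was near that of all genes tested. *HERC5*, the ligase of the ubiquitin-like ISG15, stood at 0.44, 0 and 0 against 6.35, 6.46 and 6.27, *UBE2L6*, which acts with it, differed by -2.90 (SE 0.19), whereas *OAS3*, an activator of RNase L, was higher in H69 (5.14, 5.00 and 5.34 against 0.30, 0.14 and 0.15).

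Of 14 tested MHC class I genes 7 were higher in H69 (50.0%) and 3 lower (21.4%), with a median of 0.82. Under quantile normalization 4 were higher, and without library 10 of COR-L88 1 was lower. In the second pair 4 of 12 were higher and 4 lower, with and without library 49, and the median was 0.29 (0.32 without it). *B2M*, the light chain, had values of 6.80, 6.91 and 6.92 in H69 and 5.73, 4.62 and 4.96 in COR-L88 (1.77, SE 0.26), and the peptide trimming enzyme *ERAP1* (2.07, SE 0.13) and the chaperones *PDIA3* (1.91, SE 0.11) and *CANX* (1.64, SE 0.11) were higher in H69. The heavy chain *HLA-C* was lower in H69, at 4.62, 4.86 and 4.90 against 6.09, 5.58 and 5.88 (-1.06, SE 0.15), and was no longer called without library 10 of COR-L88 (-0.94) or library 46 of H69 (-0.976). In the second pair *HLA-C* differed by -4.33 (-4.56 without library 49) and was called with and without that library. *HLA-B* (0.84, 0.53 and 0.92 against 1.42, 0.69 and 1.14), the transporter *TAP1* (0.29, 0.22 and 0.22 against 0.41, 0.13 and 0.08) and the transactivator *NLRC5* (0.01, 0.03 and 0.03 against 0.23, 0.42 and 0.31) were low in both lines and did not pass the filter. HLA genes are polymorphic and similar to each other, so part of their reads may be placed on another member. Of 10 tested genes of natural killer cell and checkpoint ligands, 2 were higher in H69 (20.0%) and 4 lower (40.0%), with a median of -0.19. Among surface proteins, the OX40 ligand *TNFSF4* (2.55, 2.58 and 3.83 against 6.61, 7.03 and 7.39), the death receptor *TNFRSF10A* (-3.42, SE 0.11) and *CD276* (B7-H3, -2.95, SE 0.11) were lower in H69, and *CD47*, which restrains phagocytosis, was higher (1.40, SE 0.09).

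Neither line had the profile of 1 side of the epithelial to mesenchymal axis. Of 32 tested genes, 10 were higher in H69 (31.3%) and 13 lower (40.6%). The mesenchymal genes *SNAI2* (3.65, 4.02 and 3.58 against 0), *LOX* (6.46, 7.02 and 6.73 against 0.64, 0.17 and 0.33), *CD44* (4.90, 5.24 and 4.87 against 0.09, 0 and 0.14) and *TNC* (3.53, 3.73 and 3.71 against 0) were higher in H69. *CDH1*, the E-cadherin of epithelia, was lower in H69 (2.72, 2.90 and 2.91 against 5.28, 4.98 and 5.28), as was the epithelial gene *RAB25* (-2.72, SE 0.10). The mesenchymal genes *CDH2* (-3.31, SE 0.09), *FN1* (-3.91, SE 0.27) and *VIM* (0.02, 0 and 0 against 1.73, 1.62 and 1.93) were lower in H69 too. *AXL* was listed at 0 in all 6 libraries. For the keratins, *KRT15* stood at 6.20, 6.55 and 6.29 in H69 and 1.32, 1.33 and 1.03 in COR-L88, and *KRT18* at 4.77, 5.01 and 4.89 against 7.41, 7.08 and 7.31.

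Of 20 tested tumor suppressors and cell cycle inhibitors, 3 were higher in H69 (15.0%) and 7 lower (35.0%). *RB1* had values of 2.11, 2.15 and 2.01 in H69 and 3.68, 3.42 and 3.66 in COR-L88 (-1.497, SE 0.10). RNA levels do not show whether the protein is intact. *CDKN1A*, encoding the cell cycle inhibitor p21, was higher in H69 (6.69, 6.78 and 6.75 against 2.84, 2.29 and 3.34). Of 15 tested BCL2 family genes, 3 were higher and 3 lower in H69 (20.0% each, near the background). The 3 higher ones were the proapoptotic *BBC3* (2.62, SE 0.16), *PMAIP1* (2.46, SE 0.10) and *HRK* (2.39, SE 0.20), which encode PUMA, NOXA and Harakiri. *BIK* (-2.19, SE 0.19) and *BCL2L11*, encoding BIM (-1.49, SE 0.11), were lower. Of 16 tested caspase and cell death genes 2 were higher (12.5%) and 7 lower (43.8%), with *CASP4* at 0.07, 0.17 and 0.06 against 2.12, 1.93 and 1.79. Proliferation genes differed seldom, with 4 of 40 higher, 3 lower and a median of 0.05, which is 17.5% called against 36.9% among all genes tested.

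Targets of drugs in use or in trials for SCLC were higher in H69 for 11 of 21 genes (52.4%) and lower for 4 (19.0%, near the background; median 1.04). *SEZ6*, a neuronal surface protein, stood at 5.76, 5.85 and 5.82 against 2.05, 1.76 and 2.24, and the chemokine receptor *CXCR4* at 5.76, 6.52 and 6.15 against 2.66, 2.67 and 2.49. The drug response genes included 1 of 23 higher in H69 (4.35%), the retinaldehyde dehydrogenase *ALDH1A1* (5.73, 5.94 and 5.94 against 0.07, 0 and 0), and 8 lower (34.8%). *SLFN11*, linked to sensitivity to DNA damage, did not pass the filter (0.13, 0.17 and 0.08 against 0.33, 0.19 and 0.34). Of 31 tested receptor tyrosine kinases and ligands 12 were higher (38.7%) and 7 lower (22.6%), with *DDR2*, a collagen receptor (8.14, 8.34 and 8.27 against 2.14, 3.19 and 2.79), and *GFRA1* (4.38, 4.06 and 4.16 against 0) higher in H69 and *RET* (1.01, 0.85 and 1.13 against 4.06, 3.98 and 4.04) and the insulin receptor *INSR* (0.17, 0 and 0.24 against 4.84, 5.31 and 5.10) lower.

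Parental H82 and H524 cells, in which *NEUROD1* was high, placed these differences among 4 lines. Over the 12995 genes, group means correlated at 0.806 between H69 and COR-L88, 0.840 between H69 and H524, 0.783 between H69 and H82, 0.821 between COR-L88 and H524, 0.809 between COR-L88 and H82 and 0.886 between H82 and H524. These are correlations across genes, which are not independent replicates. The filter used the H69 and COR-L88 libraries only, so genes that reached 1 only in H82 or H524 are missing here and in the counts below. Of the 2625 genes higher in H69, 981 (37.4%) were at least 1 above all 3 other lines in H69 alone, and 635 (24.2%) were at least 1 below all 3 others in COR-L88 alone. Of the 2169 lower genes, H69 alone was lowest by that margin for 532 (24.5%) and COR-L88 alone highest for 702 (32.4%). Every called gene met the margin between H69 and COR-L88 by the call itself, so only the margins to H82 and H524 were open. These shares are a description. *H19* and *MSX2* belonged to H69, with means of at most 1.12 in H82 and H524, whereas *LY6E*, at 9.47 and 9.89, and *DCC*, at 7.43 and 8.07, were high in every line but COR-L88.

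Between the second pair of groups, 2744 of 12922 genes were higher in H69 (21.2%) and 2273 lower (17.6%). Of the 12579 genes tested in both pairs, 2140 were higher in H69 in both, which is 85.9% of those higher in the first pair and 83.0% of those higher in the second, and 1690 were lower in both, 81.2% and 76.1%. Opposite calls were made for 8 genes higher and 11 lower in the first pair. Without library 49, 2140 were higher in both, 1706 lower in both and 9 in each direction had opposite calls. The difference between the lines itself differed between the pairs for 980 of 13547 genes (7.23%), 427 with a larger (3.15%) and 553 with a smaller value (4.08%) in the first pair. The vector, the knockout, the cell stock and the line are not separable in that comparison.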

How the data were processed

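RNA of each library was poly(A)-selected and sequenced by stranded mRNA sequencing. Per the labels and the methods of the study, the authors trimmed reads with Cutadapt, aligned them to hg19 with STAR, counted them with RSEM, scaled them by TMM in edgeR and deposited RPKM on a log2 scale. The deposited log2 values have a floor at 0, which gives a pseudocount of 1. Tool versions, gene lengths and the strand setting of the counting are not given in the sources used here, and the read depth is unknown beyond the relative library sizes.

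The groups came from the labels. Groups were tested in R 4.3.3 with limma 3.58.1 (moderated statistics with a mean-variance trend, Benjamini-Hochberg adjustment over all genes tested) on the 6 libraries, for genes at 1 or more in at least 3 libraries. Calls required a size of at least 1 besides an adjusted *P* under 0.05. Differences between both pairs were tested as an interaction over 12 libraries. On simulated data for 12995 genes, 97% of 200 changed genes were recovered with 1 false call. The changed genes were drawn from those well expressed in COR-L88. All were shifted by more than 1, with independent normal noise. The data had 4794 calls, many of them in genes near 0 in 1 line. These rates are therefore not the error rates of the calls reported here. Tables and figures were made with Python 3.11.15, numpy 2.4.6, pandas 2.3.3 and matplotlib 3.10.9. Gene positions came from an annotation lifted to GRCh37.

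The comparison, the gene lists and the rule for named genes were chosen with earlier results of these data known. Named were the 12 genes with the largest difference in each direction whose groups do not overlap and whose higher mean was at least 3, up to 4 called genes in each direction per list, and a set of subtype, Notch, MYC, STING and antigen presentation genes whatever their values. Sex-linked marker genes were not named, and some genes that the rule gives are not reported here. Alternatives left out the filter, added 0.1 in place of 1, centred libraries on their medians, normalized them by quantiles, used all 24 libraries of both lines, dropped the trend of the variances, and left out each library in turn. The medians of the *MYCL* region and of the chromosome arms and the second pair without library 49 were added to them after the data had been seen.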

Additional observations from a re-analysis of the deposited data

Results flagged for a closer look

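Whether the difference between H69 and COR-L88 differed between the first and the second pair of groups was tested by limma's interaction test. The thresholds were an adjusted *P* under 0.05 and a size of at least 1. Of 13547 genes, 980 passed (7.23%), or 1061 without library 49 of H69 NOTCH1 no dox. Of the 245 genes that the rule for named genes gave, 51 passed, a larger share than among all genes. That rule chose genes by the size of the first difference, which enters this test. The larger share is therefore no result about the named genes. Of these, 33 are named above. For 25 of these 33 the values are the first difference minus the second, in log2(RPKM + 1), with the value without library 49 in parentheses. Vector, knockout and line cannot be told apart in them.

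Among lineage factors and NE genes the values were *NEUROD1* -4.53 (-3.92), *LHX2* -1.22 (-1.27), *PTPRN* -2.88 (-3.10), *SYT4* 1.55 (1.64), *NTS* -3.94 (-3.99) and *GRP* 2.97 (2.98). For Notch and HOX genes they were *HEY2* -1.66 (-1.65), *HES1* 1.56 (1.73), *DLL3* 1.12 (1.25) and *HOXB2* 1.48 (1.55). The line difference in *HES1* and *DLL3* was under 1 in size in the first pair and -1.99 and -1.52 in the second (-2.17 and -1.65 without library 49).

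Among genes with the largest differences and their paralogs they were *PCDH9* -1.18 (-1.20), *AKR1C1* 3.12 (3.39), *AKR1C2* 2.71 (2.74) and *AKR1C3* 1.67 (1.82). Of the genes near *MYCN* and *MYCL*, the values were *FAM84A* 1.66 (1.75) and *RIMS3* 1.16 (1.06). In immune genes they were *HLA-C* 3.27 (3.498), *IFIH1* 1.86 (1.40) and *CD276* -1.001 (-0.85). Epithelial and mesenchymal genes gave *RAB25* 3.25 (3.53), *KRT15* 2.13 (2.32) and *LOX* -1.67 (-1.62). Receptor, hypoxia and cell death genes gave *DDR2* 4.05 (4.19), *EPAS1* -1.67 (-1.70) and *BIK* 1.01 (0.98).

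The other 8 genes were listed at 0 in every library of at least 1 of the 4 groups, so that no difference is given for them. Their adjusted *P* by limma's interaction test is given in parentheses for *ASB3* (0.00098), *SLFN13* (1.2e-07), *SOX11* (3.0e-05) and *MYCN* (0.00036), and likewise for *GRIA1* (0.00036), *OAS3* (0.00012), *CD44* (0.00093) and *ALDH1A1* (0.00036).

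Without library 49, 3 of the 33 no longer passed, namely *CD276*, *BIK* and *RIMS3*.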

How the results depend on the processing

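Each comparison kept its count of called genes within 1.5 times of the reported one under every alternative run. Between H69 parental and COR-L88 DMSO, 4753 to 4816 genes were called when 1 library was left out, 4883 without the filter, 5544 with a pseudocount of 0.1 and 4788 with all 24 libraries of both lines. Quantile normalization called 2327 genes higher and 2517 lower in H69 (48.0% higher, against 54.8%) and moved the median of all genes by -0.10. Median-centred libraries gave 2438 and 2382. *MYC* had a difference of -0.062 after quantile normalization, opposite in sign and not called. The members of the gene lists called numbered 357, and 348 to 384 under the alternatives. Of the Notch pathway, 5 genes were lower in H69 with quantile normalization or median-centred libraries, against 3. Of the named genes, 228 were called, and 221 to 228 under the alternatives. The median of the 25 genes around *MYCL* was -3.16 with a pseudocount of 0.1. Leaving out 1 library of the second pair gave 4880 to 5140 calls, and 867 to 1147 genes whose line difference differed between the pairs. No paired analysis was possible because the library numbers are shared by no groups. Read counts were not used here, so the depth behind genes near 0 is unknown.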
